A study of Mus musculus with 39 samples.

Results

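Mouse embryonic stem cells (ESCs) were compared between maintenance culture and the first day in differentiation medium. The miRNAs gained and lost between these were read from 6 arrays of the 39 in the series. The 6 are the 3 arrays of undifferentiated ESCs and the 3 of cells kept for 1 day in differentiation medium without growth factors (control, day 1). They were chosen by their labels alone. The ESCs were TCL-1 cells, a line derived from 129/SvJae mice that is pluripotent and can self-renew in culture. For the first group they were kept undifferentiated on mitomycin C-treated mouse embryonic fibroblast (MEF) feeders in DMEM with serum and the cytokine LIF. For the second, feeders were removed by brief plating on gelatin. The cells were then seeded on collagen overnight and placed in RPMI medium with the B27 supplement and, as the labels name it, sodium butyrate. The study's supplementary protocol spells the last component of this medium "sodium byruate", so its identity is uncertain. In the rest of the series this medium was supplemented with Activin A (100 ng/ml), with Wnt3a (50 ng/ml) or with the pair, or with neither for longer. The comparison therefore joins the loss of LIF, serum and feeders with new medium and a new surface, and these cannot be told apart. The labels do not say whether feeders were still present when RNA of the ESCs was taken, nor whether the 3 arrays of a group came from separate cultures, so the p-values measure the spread between these arrays only.

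miRNAs are RNAs of about 22 bases that bind mRNAs mainly through their seed, bases 2 to 8 counted from the 5′ end, and lower the output of those mRNAs. Mouse ESCs are known for the miR-290 to miR-295 cluster, whose miRNAs promote rapid cycling and the pluripotent state, and for the related miR-302/miR-367 cluster, which is prominent in the later, primed epiblast. Mature let-7 is held low in ESCs, where Lin28 blocks the processing of its precursors, and it accumulates as cells differentiate.

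Mature sequences of 4 seed groups are shown first, let-7 and miR-200b as groups that rose and the other 2 as groups whose members gave different values. They were taken from RefSeq (build GRCm38.p6), in lower case with the seed in capitals. All 8 let-7 miRNAs that were tested carry 1 seed, and they rose or lay higher in control:
let-7a: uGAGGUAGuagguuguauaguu
let-7b: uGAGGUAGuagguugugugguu
let-7c: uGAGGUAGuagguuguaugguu
let-7d: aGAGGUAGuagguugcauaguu
let-7e: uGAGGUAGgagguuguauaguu
let-7f: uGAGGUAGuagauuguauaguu
let-7g: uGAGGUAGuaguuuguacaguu
let-7i: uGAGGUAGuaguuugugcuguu

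The miR-302 miRNAs are shown beside 3 members of the miR-290 to miR-295 cluster, since miR-302b and miR-302d fell and share their seed, AAGUGCU, with the others, which were among the 5 most abundant miRNAs of both groups. In the sequence of miR-302c the same letters start 1 base earlier:
miR-302b: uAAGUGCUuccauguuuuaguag
miR-302c: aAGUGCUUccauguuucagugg
miR-302d: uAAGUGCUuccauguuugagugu
miR-291a-3p: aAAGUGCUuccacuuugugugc
miR-294: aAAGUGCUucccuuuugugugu
miR-295: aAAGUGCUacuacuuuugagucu

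A second seed, AUUGCAC, joined miRNAs that differed in direction, with miR-367 lower and the others higher in control:
miR-367: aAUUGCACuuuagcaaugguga
miR-25: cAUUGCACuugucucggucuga
miR-92a: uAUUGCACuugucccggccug
miR-363: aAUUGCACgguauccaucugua

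In the miR-200 family, known for keeping epithelial cells epithelial, 3 of the tested miRNAs share a seed and all 3 rose:
miR-200b: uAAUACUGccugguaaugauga
miR-200c: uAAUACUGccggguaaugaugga
miR-429: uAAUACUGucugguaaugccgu

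All 6 arrays lay on 1 slide and were scanned in 1 session. Of 611 mouse miRNAs with probes, the scanner software detected 180 to 231 per ESC array and 183 to 234 per control array, with summed signals of 52506 to 59856 and 55951 to 67465. No spot was saturated, and the median local background was 40.0 to 42.0 intensity units. ESC replicate 3 and control replicate 2 detected the most miRNAs of their groups. In all, 356 miRNAs were detected on none of the 6 arrays, 33 on too few arrays to be tested, and 162 on all 6. Over these 162, arrays of 1 group correlated at 0.97 to 0.99 and arrays of different groups at 0.88 to 0.92. Levels below are log2 of the total signal after quantile normalization over the 6 arrays, with a floor of 2, and a signal is the value as deposited. The precision of every value is limited by the number of arrays, 3 per group.

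Of the 222 miRNAs tested, 52 (23.4%) differed by more than 2-fold at a limma adjusted p under 0.05, 26 higher and 26 lower in control, or 11.7% of those tested in each direction. Another 65 passed the adjusted p with a smaller difference, so that 117 (52.7%) passed in all, and 105 did not. The median difference over all 222 was 0.14 on the log2 scale. Among the 162 detected throughout, 14 were called higher and 17 lower; the other 21 calls involve at least 1 array with no detection, and their size depends on the floor. A rank-based property of the normalization matters for the most abundant miRNAs. An miRNA that holds the same rank on every array of a group receives the same level on each, so its spread is understated. For several of these the signals are given too. The plot of the difference against the level shows where the called miRNAs lie.

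**Figure D1:**
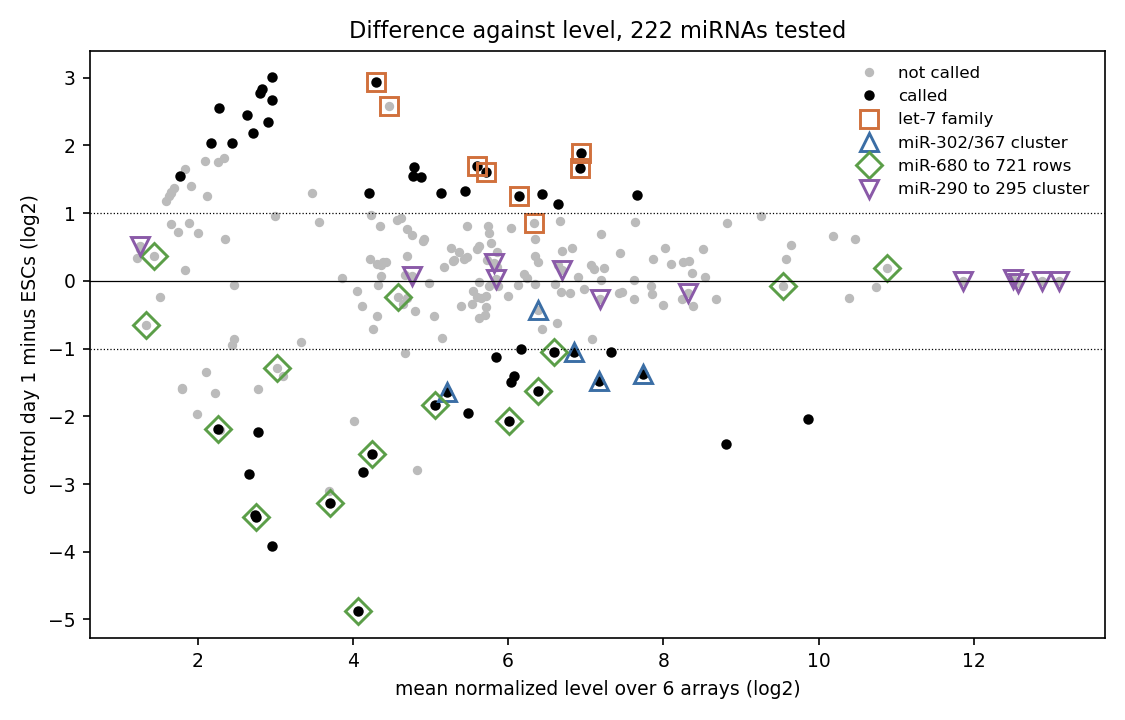
Difference between control day 1 and undifferentiated ESCs (log2, vertical axis) against the mean normalized level over the 6 arrays (log2, horizontal axis) for the 222 miRNAs tested. Black points were called (26 above and 26 below), dotted lines mark 2-fold, and outlined symbols mark 4 miRNA lists. The miR-290 to miR-295 cluster lies along 0 up to the highest levels, the let-7 family above and the miR-302/miR-367 cluster below.

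The let-7 family rose. These miRNAs repress growth and fetal-stage genes such as Lin28, Hmga2 and Ras. Of the 16 let-7 names on the array 8 were tested and 6 were called higher. Another, let-7i, passed with less than 2-fold, and none fell. Among all miRNAs tested, 11.7% were called higher and 31.1% passed higher. The median difference of the 8 was 1.69. The signal of let-7f was 44.03, 75.09 and 71.99 on the 3 ESC arrays and 216, 268 and 239.9 on the 3 control arrays. Its level rose from 5.99 ± 0.41 (SD, n = 3) to 7.88 ± 0.02, a 3.70-fold increase (log2 difference 1.89, SE 0.22, limma adjusted p = 0.0024). The signal of let-7a was 62.6, 69.4 and 70.6 in ESCs and 199.0, 249.7 and 220.3 in control. In both miRNAs the lowest control array lay above the highest ESC array. Groups without overlap were common, in 138 of the 222 miRNAs tested (62.2%). The level of let-7a rose by a log2 difference of 1.67 (SE 0.08, adjusted p = 0.00018), or 3.19-fold.

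The others followed at lower levels. The signal of let-7d was 18.4, 27.1 and 34.2 in ESCs and 75.8, 96.5 and 84.6 in control (log2 difference 1.70, SE 0.24, adjusted p = 0.0042). For let-7c it was 21.3, 34.6 and 32.6 against 82.7, 98.9 and 88.0 (1.61, SE 0.27, adjusted p = 0.0072). For let-7e it was 38.1, 47.8 and 44.7 against 98.3, 121.1 and 105.2 (1.26, SE 0.14, adjusted p = 0.0021). ESC replicate 1 was the lowest of the ESC arrays in each of these, and all control arrays lay higher, a pattern of no overlap shared by 62.2% of all miRNAs tested. The smallest difference was that of let-7i, from a signal of 51.7, 56.0 and 61.5 to 94.3, 115.2 and 112.6 (0.86, SE 0.08, adjusted p = 0.0011). ESC replicate 1 did not detect let-7b or let-7g. The signal of let-7b was 14.2 and 13.9 on the other ESC arrays and 55.0, 64.1 and 55.4 in control, so its fitted difference of 2.94 (SE 0.85, adjusted p = 0.039) depends on the floor. It no longer passed without ESC replicate 3 (3.32, adjusted p = 0.060) or without any 1 of the control arrays (2.84 to 3.00, adjusted p = 0.081 to 0.11). The signal of let-7g was 15.0 and 24.9 on those ESC arrays and 49.4, 64.5 and 59.2 in control, and it did not pass (2.59, SE 1.00, adjusted p = 0.089). Without ESC replicate 1 it passed, with a difference of 1.51. The share of the summed signal of an array that fell to let-7 was 0.407% to 0.646% in ESCs and 1.56% to 1.60% in control.

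Several let-7 genes lie together in the genome. let-7a, let-7f and let-7d come from 1 cluster on chromosome 13, with let-7d at chr13:48536078-48536099 and let-7a at chr13:48538239-48538260, both on the minus strand. let-7c and let-7b lie at chr15:85706616-85706637 and chr15:85707325-85707346 on the plus strand; let-7c and let-7f each have another copy. Since members of equal length differ by as few as 1 base (let-7a from let-7c, let-7e or let-7f) and by at most 6 (let-7d from let-7i), a probe may take up RNA of another member. How far this joins their values was not tested.

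The let-7e locus shows different values for neighbours on 1 strand. miR-99b is encoded at chr17:17830194-17830215, let-7e at chr17:17830366-17830387, miR-125a-5p at chr17:17830817-17830840 and miR-125a-3p, from the other arm of the same hairpin, at chr17:17830855-17830876. While let-7e rose, miR-99b fell, from a signal of 61.6, 52.8 and 57.9 to 41.2, 57.4 and 49.1 (log2 difference -0.39, SE 0.06, adjusted p = 0.0046). The signal of miR-125a-5p was 41.1, 26.3 and 43.7 in ESCs and 46.72, 60.23 and 52.95 in control, and it did not pass (0.35, SE 0.15, adjusted p = 0.12). miR-125a-3p was detected on all ESC arrays and on no control array. For miR-125b-5p, a related miRNA encoded elsewhere, the signal was 395, 386 and 413 in ESCs and 713, 953 and 847 in control (0.96, SE 0.07, adjusted p = 0.00073). With scaling to the 75th percentile in place of quantile normalization, the difference of miR-99b was -0.17 and did not pass.

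**Figure D2:**
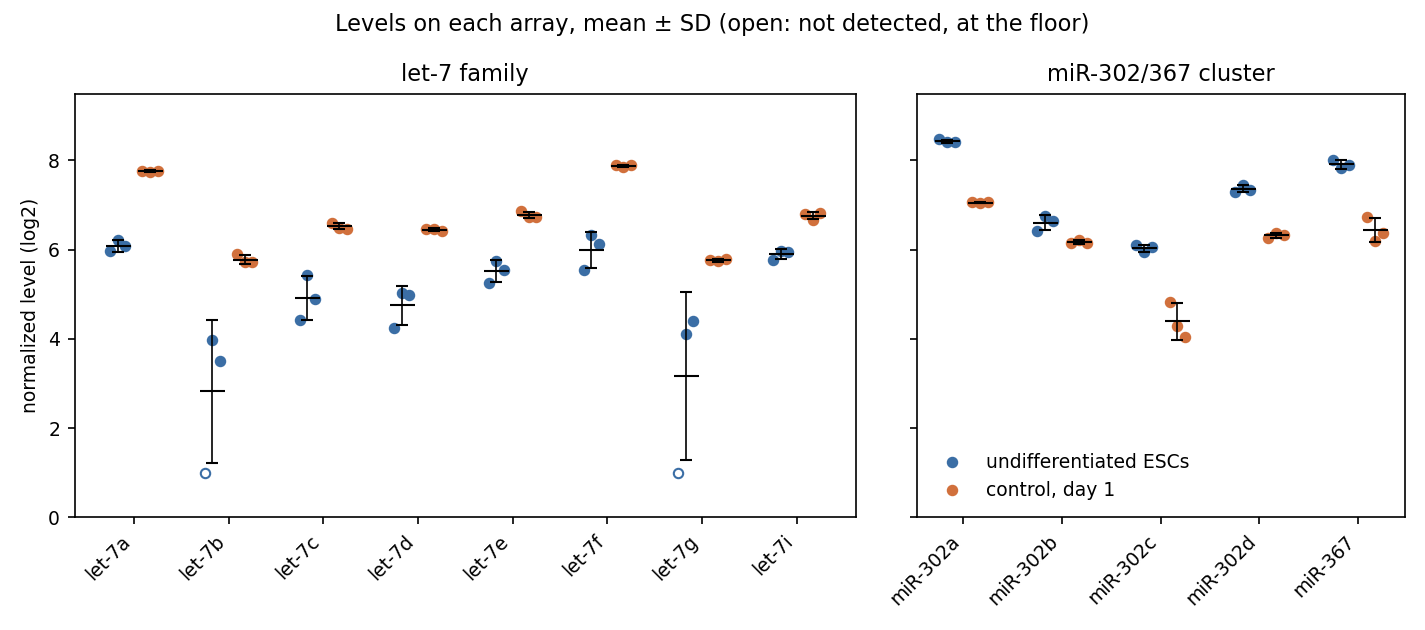
Normalized level (log2) of each tested let-7 and miR-302/miR-367 miRNA on the 3 arrays of undifferentiated ESCs (blue) and the 3 of control day 1 (orange), with the mean and SD. Open points were not detected and lie at the floor. Every let-7 control array lies above the ESC arrays, and every miR-302/miR-367 control array lies below them.

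The miR-302/miR-367 cluster fell. It lies within 1 gene region on chromosome 3, from miR-302b at chr3:127545275-127545297 to miR-367 at chr3:127545779-127545800, on the plus strand. All 5 miRNAs tested of the 8 names on the array passed with lower values in control and 4 were called, beside 11.7% of all miRNAs called lower. Their median difference was -1.37. The signal of miR-302a was 326, 284 and 326 in ESCs and 118.4, 149.5 and 130.0 in control, a 2.59-fold decrease (log2 difference -1.37, SE 0.04, adjusted p = 7.3e-05). That of miR-302c was 68.7, 54.0 and 69.4 against 22.5, 25.9 and 14.7, a 3.12-fold decrease (-1.64, SE 0.22, adjusted p = 0.0039). The signal of miR-302d was 176, 157 and 173 against 66.3, 90.7 and 79.1 (-1.05, SE 0.06, adjusted p = 0.00037). That of miR-367 was 245, 198 and 238 against 91.5, 82.3 and 81.7, a 2.78-fold decrease (-1.47, SE 0.16, adjusted p = 0.0017). All control arrays lay below the ESC arrays in these 4, where 62.2% of all miRNAs tested showed no overlap in either direction. The smallest fall was that of miR-302b, from 93.3, 98.3 and 102.9 to 63.4, 83.9 and 70.1 (-0.43, SE 0.10, adjusted p = 0.019). It no longer passed under several alternatives, among them the omission of ESC replicate 3 (-0.41) or of control replicate 3 (-0.42). The cluster took 1.51% to 1.57% of the summed signal in ESCs and 0.614% to 0.647% in control.

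The miR-290 to miR-295 cluster, the set of miRNAs most characteristic of mouse ESCs, showed 0 calls among its 12 tested miRNAs of 14 names. For all miRNAs tested the share called was 23.4%. It held 53.5% to 55.6% of the summed signal in ESCs and 54.8% to 56.7% in control, so both groups carried the miRNAs that mark ESCs at high signal after 1 day. The 5 miRNAs with the highest level, miR-294, miR-292-3p, miR-295, miR-293 and miR-291a-3p, were the same in both groups, although a signal also depends on the probe. For miR-294 the signal was 8378, 7693 and 8776 in ESCs and 8389, 10120.0 and 9059 in control. Because it ranked first on every array, its quantile-normalized difference is 0 by construction, and the same holds for miR-292-3p and miR-291a-3p, which also kept 1 rank on all 6 arrays. These 3 could not pass the test. Scaling to the 75th percentile gave a difference of 0.21 for miR-294, 0.25 for miR-292-3p, 0.24 for miR-295 and -0.18 for miR-291a-3p. With that scaling miR-293 differed by 0.40 and passed the test at less than 2-fold, as did miR-295. The median difference of all miRNAs tested was 0.23 with that scaling, near the values of miR-294, miR-292-3p and miR-295. Of the others, miR-290-3p rose by 0.27 (SE 0.08, adjusted p = 0.042) and miR-291a-5p fell by 0.27 (SE 0.06, adjusted p = 0.019). Neither passed with every array left out in turn: miR-290-3p failed without any 1 array but ESC replicate 3 (0.19 to 0.32), and miR-291a-5p without ESC replicate 1, ESC replicate 3 or control replicate 3 (-0.24 to -0.29).

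Set by seed, 10 seeds were shared by at least 3 of the 142 tested miRNAs for which RefSeq gave a sequence. In the seed AAGUGCU, miR-302b and miR-302d fell. The quantile-normalized difference of miR-291a-3p and miR-294 is fixed at 0 by their rank, so for the others the values of the 75th percentile scaling stand: -0.18 for miR-291a-3p (adjusted p = 0.058), 0.21 for miR-294 (adjusted p = 0.053) and 0.24 for miR-295 (adjusted p = 0.045), beside -0.39 for miR-302b and -1.05 for miR-302d. The median of all miRNAs tested was 0.23 with that scaling. In the seed AUUGCAC, miR-367 fell while miR-92a, miR-363 and miR-25 rose. The signal of miR-92a was 1157, 1199 and 1224 in ESCs and 1752, 2027 and 1822 in control (log2 difference 0.62, SE 0.10, adjusted p = 0.0060). For miR-363 the difference was 0.25 (adjusted p = 0.039) and for miR-25 0.12 (adjusted p = 0.040), the latter below the median of all miRNAs tested, 0.14. In the seed AAAGUGC of miR-17, miR-20a, miR-20b, miR-93 and miR-106b, 2 miRNAs rose, 1 fell and 2 did not pass. The signal of miR-20b rose from 961, 996 and 1063 to 1326, 1654 and 1516 (0.66, SE 0.06, adjusted p = 0.0010) and that of miR-20a from 675, 687 and 739 to 768, 967 and 879 (0.54, SE 0.13, adjusted p = 0.022). The level of miR-106b fell by 0.35 (log2; SE 0.04, adjusted p = 0.0029), but with scaling to the 75th percentile it did not pass. The seeds whose tested members all lay higher in control were GAGGUAG of let-7, AAUACUG of miR-200b, AGCACCA of miR-29 and AGCAGCA of miR-15 and miR-16, with median differences of 1.69, 1.14, 0.89 and 0.77.

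The miR-17-92 cluster, which drives growth and is transcribed as 1 precursor, also gave values in both directions. Of 8 tested miRNAs 3 passed higher and 4 lower, with 1 call. The shares over all miRNAs tested were 31.1% passed higher, 21.6% passed lower and 23.4% called. The differences of those that fell were small, -0.17 for miR-19a, -0.18 for miR-18a, -0.25 for miR-19b and -0.51 for miR-17*. The signal of miR-19b was 1504, 1291 and 1503 in ESCs and 1090.0, 1297 and 1164 in control, so its signals overlapped. Both miR-19b and miR-92a have another copy in the genome, so their values cannot be assigned to this cluster alone. The call was miR-20a*, described below among the gained miRNAs.

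In the miR-200 family all 5 tested miRNAs of 9 names lay higher in control, 4 passed and 2 were called, with a median of 1.14. This compares with 31.1% passed higher and 11.7% called higher among all miRNAs tested. The signal of miR-200c was 15.4, 16.3 and 16.9 in ESCs and 44.7, 57.0 and 49.6 in control, a 2.91-fold increase (log2 difference 1.54, SE 0.14, adjusted p = 0.0011). That of miR-200b was 64.68, 64.69 and 71.97 against 132.1, 152.1 and 148.5, a 2.20-fold increase (1.14, SE 0.06, adjusted p = 0.00024). miR-200a rose by 0.97 (SE 0.14, adjusted p = 0.0043) and miR-429 by 0.70 (SE 0.12, adjusted p = 0.0075), both encoded beside miR-200b on chromosome 4. miR-141, the neighbour of miR-200c, was detected on 0 ESC arrays and on 2 control arrays with signals of 11.1 and 11.3, and did not pass. The increases of miR-200b and miR-200c were larger than the spread between replicates, with all control arrays above the ESC arrays, as in many of the miRNAs tested.

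The miR-34 miRNAs, which p53 induces and which slow the cell cycle, rose as well. The signal of miR-34c was 15.8, 16.4 and 18.9 in ESCs and 48.8, 56.6 and 51.9 in control, a 2.91-fold increase (log2 difference 1.54, SE 0.12, adjusted p = 0.00077). That of miR-34b-5p, from the same transcript, was 18.7, 20.7 and 27.5 against 55.3, 62.5 and 58.0, a 2.47-fold increase (1.31, SE 0.12, adjusted p = 0.0011). miR-34a, from its own gene, had a signal of 298, 277 and 309.9 against 428, 498 and 460.4 (0.46, SE 0.03, adjusted p = 0.00066). The fourth miRNA of that list, miR-210, which low oxygen induces, lay at 19.02, 14.57 and 30.95 in ESCs and 13.8, 30.6 and 14.8 in control and did not pass (-0.06, SE 0.23, adjusted p = 0.83).

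In the miR-15/16 seed family, which restrains cyclins and Bcl2, all 6 tested miRNAs had a higher mean level in control, 5 passed and 1 was called. The share of calls lay near that of all miRNAs tested, of which 11.7% were called higher and 31.1% passed higher. The call was miR-195, with a signal of 14.8, 16.2 and 15.6 in ESCs and 45.3, 60.3 and 51.9 in control, a 3.19-fold increase (1.68, SE 0.15, adjusted p = 0.0011). Its partner in the same cluster, miR-497, rose by 0.77 (SE 0.14, adjusted p = 0.011), miR-15a by 0.44 and miR-16 by 0.30. The level of miR-15b rose by 0.85 (SE 0.07, adjusted p = 0.0010), with a signal of 290, 324 and 331 in ESCs and 485, 585 and 544 in control. The control arrays gave miR-15b 1 level, so its spread there is understated. All 3 tested miR-29 miRNAs, which repress collagen genes and DNA methyltransferases, rose by 0.49 to 0.91 without a call. In the cluster of miR-183, miR-96 and miR-182, which sensory cells express highly, miR-183 rose from a signal of 46.4, 56.6 and 54.1 to 123, 150.1 and 129, a 2.43-fold increase (1.28, SE 0.12, adjusted p = 0.0012). miR-96 rose by 0.87 (SE 0.13, adjusted p = 0.0058), and miR-182, at 0.37, did not pass. miR-26b, of a family that represses Ezh2, had a signal of 17.9, 34.7 and 30.3 in ESCs and 60.5, 80.2 and 69.4 in control (1.33, SE 0.33, adjusted p = 0.025), and miR-26a rose by 0.41 (SE 0.04, adjusted p = 0.0010). miR-674* completed the 10 largest increases among the miRNAs detected throughout, with a signal of 8.35, 9.28 and 18.6 against 24.1, 30.7 and 33.8 (1.30, SE 0.30, adjusted p = 0.020). Of these, miR-26b did not pass without ESC replicate 3 or without any 1 of the control arrays (1.31 to 1.37, adjusted p = 0.062 to 0.084), nor miR-674* without control replicate 3 (1.20, adjusted p = 0.086).

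miRNAs known from fibroblasts moved with these families. Of 17 names in that list 10 were detected on at least 1 array and 8 were tested, of which 6 rose, 1 was called and none fell, with a median of 0.49. Of all miRNAs tested, 31.1% passed higher and 11.7% were called higher, so the share of calls in the list lay near that of all miRNAs. The call was miR-199a-3p, with a signal of 118, 137 and 139 in ESCs and 365.1 and 333.3 on control replicates 2 and 3, with replicate 1 lower but above every ESC array, a 2.41-fold increase (1.27, SE 0.12, adjusted p = 0.0012). miR-214 rose by 0.68 (SE 0.16, adjusted p = 0.019), miR-199b* by 0.61, miR-199a-5p by 0.56, miR-221 by 0.43 (SE 0.03, adjusted p = 0.00080) and miR-22 by 0.32. miR-21, with a signal of 1572, 1564 and 1666 against 1710.0, 1862 and 1735, and miR-31 did not pass. The summed signal of the list was 2034 to 2206 in ESCs and 2465 to 2822 in control, or 3.57% to 3.87% and 4.18% to 4.41% of the array. The other 9 names were not tested: miR-145, miR-145*, miR-152, miR-21*, miR-22*, miR-31* and miR-214* were detected on 0 of the 6 arrays, miR-143 on 1 control array and miR-222, encoded beside miR-221, on 1 ESC array. Fibroblasts also express let-7, miR-125b-5p and miR-29, and the part of feeder or other fibroblast RNA in these increases was not tested. In bulk RNA, more cells of a type and more of an miRNA per cell cannot be told apart.

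Markers of other cell types were detected in part for blood cells, and little or not at all for the others. Of 5 neural names 1 was detected: miR-124 on 1 ESC array with a signal of 12.6 and on all control arrays with 14.8, 18.5 and 16.7. Its fitted difference of 2.35 (SE 0.70, adjusted p = 0.042) depends on the floor. Of 8 blood cell names 2 were tested and 0 passed, and of 11 muscle, liver and endoderm names 0 were detected on any of the 6 arrays.

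**Figure D3:**
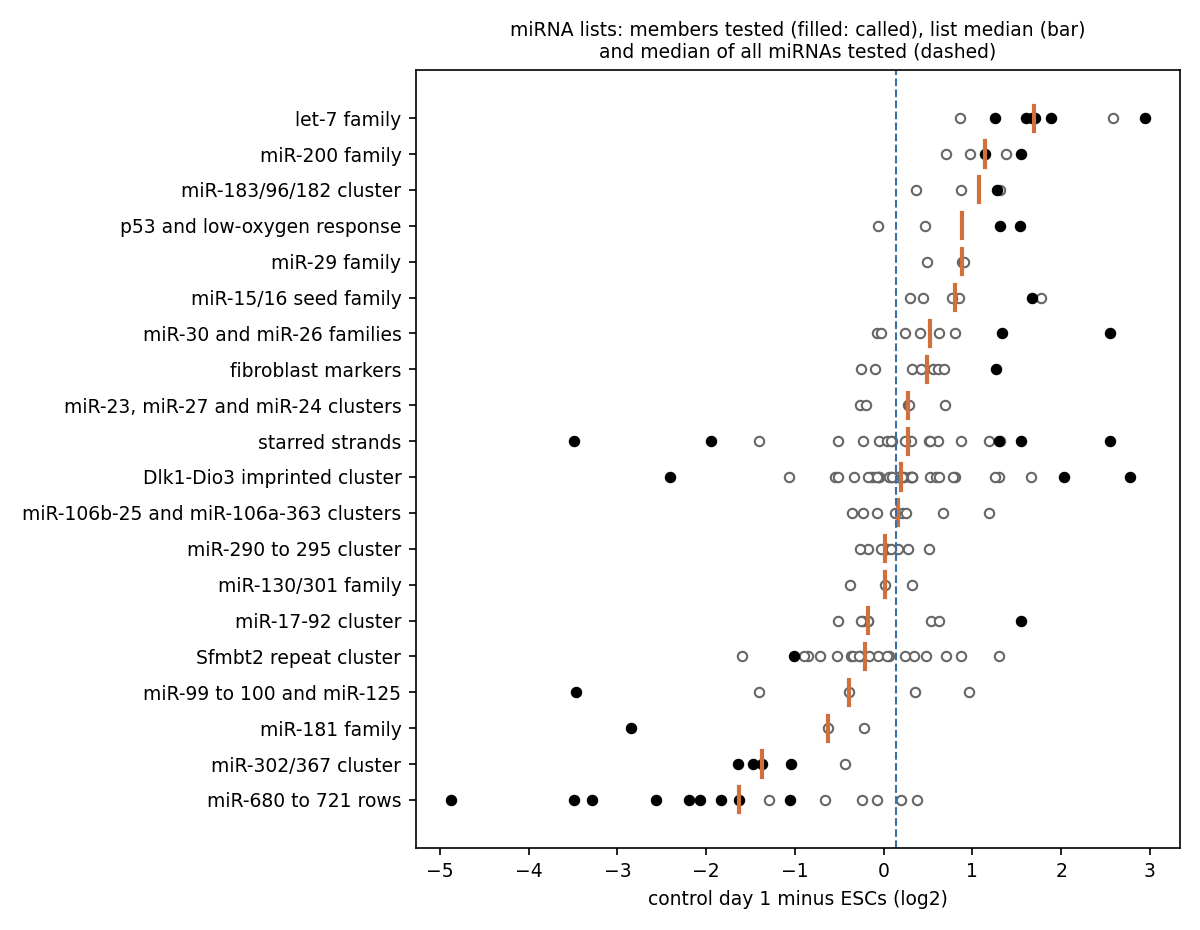
Difference between control day 1 and ESCs (log2) of each tested miRNA in the 20 lists with at least 3 tested members; filled points were called, the orange bar is the median of the list and the dashed line the median of all 222 miRNAs tested, 0.14. The let-7 family has the highest median, 1.69, and the miR-680 to miR-721 rows the lowest, -1.63.

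Most of the largest decreases lay outside the ESC clusters. Among miRNAs detected on all 6 arrays they were, in order, those of miR-705, miR-494, miR-721, miR-1224, miR-135a*, miR-680, miR-302c, miR-690, miR-188-5p and miR-367. The signal of miR-494, encoded in the imprinted Dlk1-Dio3 region, was 1401, 755 and 1163 in ESCs and 156, 276 and 170.4 in control, a 5.32-fold decrease (log2 difference -2.41, SE 0.19, adjusted p = 0.00080). That of miR-1224 was 2022, 1408 and 1794 against 429.6, 549 and 474, a 4.10-fold decrease (-2.04, SE 0.09, adjusted p = 0.00018). The 3 control arrays ranked miR-1224 alike and so gave it 1 level. The signal of miR-135a* was 103.8, 76.84 and 94.9 against 19.97, 27.15 and 21.64, a 3.86-fold decrease (-1.95, SE 0.11, adjusted p = 0.00028). For miR-188-5p it was 140.7, 84.46 and 114.3 against 36.8, 46.8 and 45.9 (-1.50, SE 0.12, adjusted p = 0.00085). In each of these ESC replicate 2 was the lowest of the ESC arrays and still lay above every control array; 62.2% of all miRNAs tested had no overlap.

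The other 4 carry names from the run miR-680 to miR-721, given to sequences cloned from mouse embryos, for most of which no function is known. Of the 44 array rows with these names 15 were tested, of which 9 were called lower and 0 higher, with a median of -1.63, where 11.7% of all miRNAs tested were called lower. The signal of miR-705 was 54.0, 35.5 and 39.5 in ESCs and 6.58, 14.6 and 7.63 in control, a 5.90-fold decrease (-2.56, SE 0.35, adjusted p = 0.0040). That of miR-721 was 168, 109 and 138 against 25.8, 39.2 and 31.1 (-2.07, SE 0.11, adjusted p = 0.00024), and that of miR-690 was 179, 119.8 and 159 against 41.2, 66.0 and 48.0 (-1.63, SE 0.12, adjusted p = 0.00077). For miR-680 it was 70.2, 49.3 and 63.0 against 6.09, 31.8 and 18.02, with control replicate 2 the highest (-1.84, SE 0.31, adjusted p = 0.0076). With the slide position of the arrays in the fit, described at the end, the difference became -2.47 in miR-680 and -1.94 in miR-705. The rows did not all move alike: miR-709 rose from 1777, 1476 and 1711 to 1989, 2487 and 2220.0 (0.19, SE 0.03, adjusted p = 0.0060), and miR-712 and miR-720 did not pass. Without these rows the lower calls numbered 17 in place of 26 and the higher calls stayed at 26.

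Of the Sfmbt2 repeat cluster, a large imprinted array of miRNA copies, 20 of 39 names were tested, 9 fell, 0 rose and 1 was called, with a median of -0.21. Of all miRNAs tested, 21.6% passed lower and 11.7% were called lower. The call was miR-669b, with a signal of 111, 86.9 and 105 against 48.3, 60.2 and 51.4 (-1.01, SE 0.04, adjusted p = 0.00016). Probes for these near-identical copies may share RNA. Of the Dlk1-Dio3 region 34 of 70 names were tested, 9 rose, 2 fell and 3 were called: miR-369-5p and miR-434-5p higher and miR-494 lower. These shares lie below those of all miRNAs tested, of which 31.1% passed higher, 21.6% passed lower and 23.4% were called. The median of the region was 0.19, and miR-376a, the other that fell, fell by 0.54 (log2; SE 0.05, adjusted p = 0.0011).

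By detection alone, 3 miRNAs were gained, on 0 ESC arrays and all 3 control arrays, and 3 were lost. The gained miRNAs were miR-30e*, miR-20a* and miR-183*, each the minor strand of a hairpin. The signal of miR-30e* was 11.4, 14.6 and 12.7 in control, at least 2.16-fold above the lowest signals the ESC arrays detected (limma adjusted p = 0.0025). Its major strand, miR-30e, did not pass (-0.03, SE 0.15, adjusted p = 0.87). The signal of miR-20a* was 5.74, 11.8 and 5.33, at least 1.08-fold above those signals (adjusted p = 0.015), and it did not pass without ESC replicate 3 (adjusted p = 0.12) or control replicate 2 (adjusted p = 0.088). That of miR-183* was 6.45, 6.47 and 6.46, too close to the limit of detection to give a bound over 1, and it did not pass (difference 1.31, adjusted p = 0.15). It passed with scaling to the 75th percentile (1.72, limma adjusted p = 0.00014), and with the slide position in the fit the difference was 2.54. These gains thus rest on signals near the lowest that the arrays detect, 4.25 to 6.76 as deposited. All 3 entered the test only through the control arrays, and their ESC values were all the floor, without spread. Their adjusted p-values therefore do not measure a spread between ESC arrays.

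**Figure D4:**
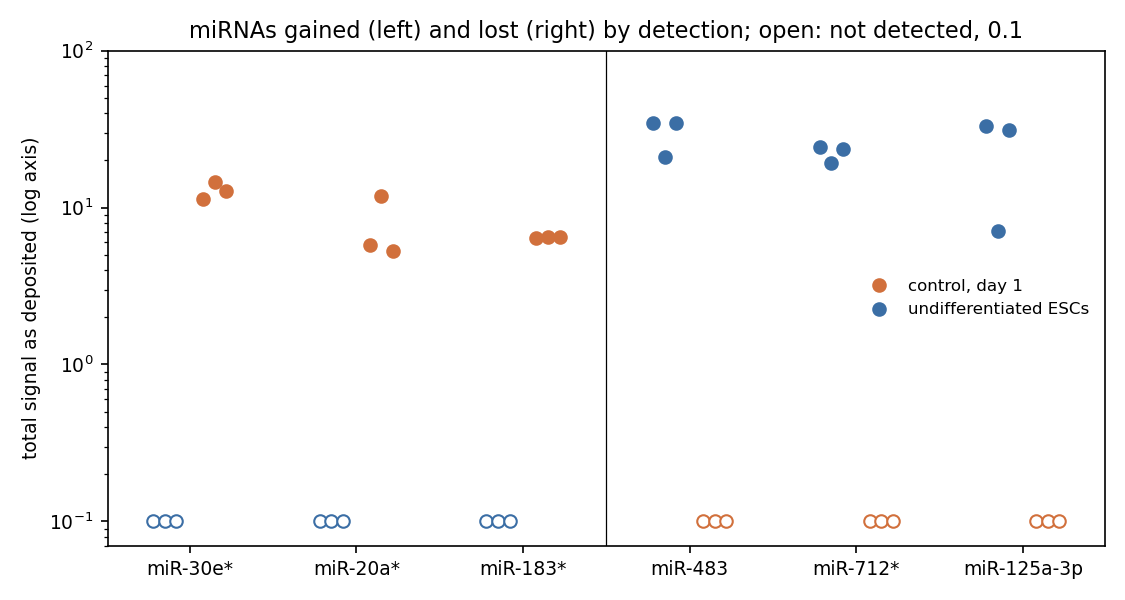
Total signal as deposited (log axis) of the 3 miRNAs gained and the 3 lost by detection, on the 3 arrays of undifferentiated ESCs (blue) and the 3 of control day 1 (orange). Open points were not detected and are listed at 0.1 by the software; detected signals run from 5.33 to 34.5.

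The lost miRNAs stood further from the limit. The signal of miR-483, which lies in an intron of Igf2, was 34.4, 21.2 and 34.5 in ESCs, at least 7.04-fold above the lowest signals the control arrays detected (adjusted p = 0.00012). That of miR-712* was 24.3, 19.3 and 23.7 (at least 5.24-fold, adjusted p = 7.3e-05). For miR-125a-3p it was 33.0, 7.05 and 31.1, with ESC replicate 2 low (at least 5.15-fold, adjusted p = 0.0029). Close to this pattern were 5 miRNAs with detection on all ESC arrays and 1 control array, of which miR-181c, miR-697, miR-706 and miR-139-3p were called lower. The array in question was control replicate 2, which detected the most miRNAs of its group. In the same way 12 miRNAs were detected on all control arrays and on 1 ESC array. Of these 9 were called higher: miR-335-5p, miR-10a, miR-369-5p, miR-129-3p, miR-425, miR-124, miR-331-3p, miR-28 and miR-434-5p. For all 9 the array was ESC replicate 3, and without it 15 miRNAs counted as gained in place of 3. The signal of miR-335-5p, from an intron of the imprinted gene Mest, was 16.5, 25.4 and 24.4 in control and lower than these there. That of miR-10a, from the HoxB cluster, was 10.2 there and 16.9, 19.9 and 17.6 in control. Since undetected arrays enter at the floor, the fitted differences of these miRNAs are not measured folds. These 12 miRNAs, like the 5 above, passed the detection filter only through the group where all arrays detected them. Their calls follow in large part from how they were picked and give no separate evidence of gain or loss. Of all miRNAs tested, 11.7% were called higher and 11.7% lower. The 3 lost miRNAs entered the test only through the ESC arrays, and their control values were all the floor, without spread. Their adjusted p-values therefore do not measure a spread between control arrays.

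The same miRNAs were read in the other groups of day 1, with levels normalized over the 39 arrays. These share the ESC arrays with the comparison above. Of the 3 Activin A arrays 2 lay on the slide used here, and all arrays with Wnt3a or the pair lay on another. The level of let-7f was 7.08 in ESCs and 8.92 in control; Activin A gave 8.84, Wnt3a 8.66 and the pair 8.71. That of miR-34c was 5.48, 6.71, 6.73, 6.65 and 6.56 in the same order, and that of miR-200c 5.40, 6.61, 6.78, 6.46 and 6.65. These miRNAs thus stood above the ESC level in every day 1 group. The level of miR-367 was 8.92 in ESCs and 7.51 in control, while Activin A gave 6.64, Wnt3a 7.81 and the pair 6.62, and that of miR-302d 8.41, 7.41, 6.74, 8.05 and 7.43. The level of miR-494 was 10.97, 8.63, 8.42, 8.98 and 8.81, and miR-705 was detected on all ESC and control arrays but on 2 of the Activin A arrays, 2 of the Wnt3a arrays and 1 of those with the pair. miR-483 and miR-712* were detected on none of the 12 arrays of day 1, and miR-125a-3p on 1, with Wnt3a. miR-30e* and miR-20a* were detected on all 12.

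**Figure D5:**
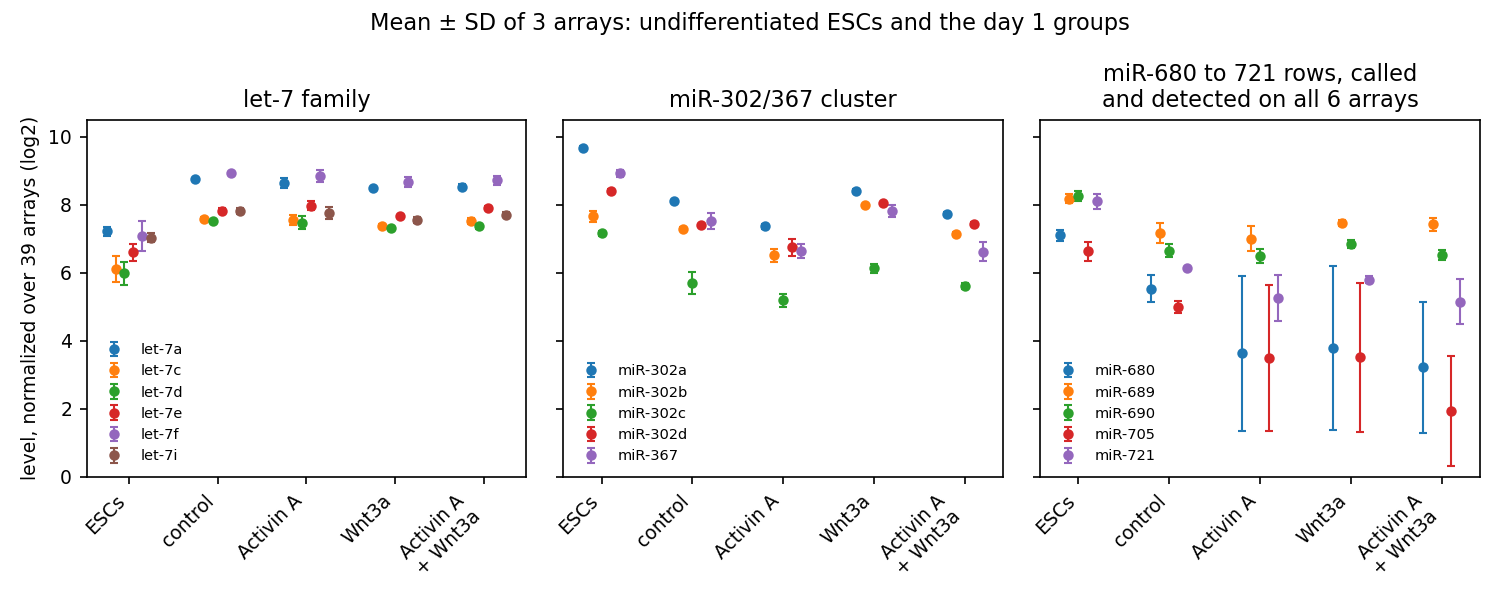
Level (log2, normalized over the 39 arrays; mean and SD of 3 arrays) in undifferentiated ESCs and the 4 day 1 groups, for let-7 (left), miR-302/miR-367 (middle) and the miR-680 to miR-721 rows that were called and detected on all 6 arrays (right). Every let-7 mean of day 1 lies above its ESC mean; all miR-302/miR-367 means but that of miR-302b with Wnt3a lie below theirs. Bars reaching far down include undetected arrays at the floor.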

How the data were processed

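Total RNA of 6 samples was labelled with Cy3 and hybridized to Agilent 1-colour mouse miRNA arrays, 1 array per sample. The authors deposited intensity values as scanner output. Feature Extraction 10.7.3.1 is named in the scanner output, while the submitters' processing notes name version 9.5.3.1. Background-corrected signals of all spots for an miRNA were combined there to 1 total, set to 0.1 where undetected. The deposited series matrix holds log2 values normalized by the authors and served only as an alternative. Groups and replicate numbers came from the labels.

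Signals of 611 mouse miRNAs were quantile normalized over the 6 arrays and log2-transformed, after values under 2 had been set to 2. An miRNA was tested where at least 2 of 3 arrays of a group detected it, with limma 3.58.1 (R 4.3.3) and Benjamini-Hochberg adjustment over the 222 tested, and was called where it passed 0.05 and differed by more than 2-fold. The fit was tested on simulated data. An miRNA undetected on a whole group has a bound in place of a fold: the detected group's mean on the log2 scale less the mean, over the undetected group's arrays, of the lowest level detected (or the miRNA's own level where that is higher). Gained and lost are counts of detection flags.

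Named are the 10 largest increases and decreases among calls detected on all 6 arrays, up to 5 calls per direction with a group undetected, the 5 most abundant miRNAs, and members of the described lists. miR-183*, the miRNAs detected on 1 array of a group, the let-7e locus and the shared seeds were chosen after their values were seen. The members and lists were chosen with earlier results of these data known. Array names mostly lack the arm. Of the 222 tested names, 142 were matched to a RefSeq mature sequence, 43 by the same name, 95 after adding the arm and 4 by a renamed copy. Where no arm was set beforehand, the only arm that RefSeq held was taken. Some matches, such as miR-376c and miR-487b to their 5p arms, may therefore be the wrong strand. A sequence was found for 69.2% of the lower calls, beside 64.0% of all miRNAs tested. In those with a sequence the median share of G was 35.7% in lower calls and 23.8% in higher calls. It was 23.8% in all tested and 22.7% in those not called. Whether base composition bears on the decreases was not tested.

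Alternatives of the signal were quantile normalization over 39 arrays or of log2 signals, scaling to the 75th percentile, no normalization and the authors' series matrix. Others were normexp correction of median spot signals (offset 50), floors of 1 and 5 and other detection filters. The fit was varied as 1 fit of 13 groups, the methods' one-way test, the replicate number as a block and each array left out. Added after the data were seen were the slide position in the fit and the omission of the miR-680 to miR-721 rows.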

Additional observations from a re-analysis of the deposited data

How the results depend on the processing

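All 52 calls kept their sign with the 75th percentile scaling, with normexp correction and with the slide position in the fit. The higher and lower calls numbered 26 each. They were 16 and 19 with quantile normalization over 39 arrays, 14 and 17 among miRNAs detected on all 6 arrays, where fewer were tested, 17 and 23 with no filter, and 69 and 48 with no fold limit. Under normexp correction they were 0 and 2, although 72 and 57 miRNAs passed the adjusted p there, 47 of the 52 calls among them; this setting changes the signal, the background correction and the offset together, and the cause was not tested. Without the miR-680 to miR-721 rows the lower calls were 17. Leaving out each array gave 20 to 27 higher and 22 to 28 lower calls. The one-way test that the methods name, run on the values used here, gave 23 and 23 after Benjamini-Hochberg adjustment. The gained miRNAs numbered 6 and the lost 7 when 2 of 3 detected arrays sufficed; leaving out each array gave 3 to 15 gained (15 without ESC replicate 3) and 3 to 8 lost (6 without ESC replicate 2, 8 without control replicate 2).

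The 3 ESC arrays and control replicate 1 shared the first position number of the array barcode (1), and control replicates 2 and 3 had the other (2). This number is called the slide position here, and whether it marks a row or a column is not stated. A fit with the slide position in effect sets control replicate 1 alone against the ESC arrays, so its calls are not counted here. The replicate numbers did not pair the arrays: the deviations of same-numbered arrays correlated at 0.05, -0.43 and -0.22. With the replicate block the calls were 17 and 20, with 37 of the 52 among them. Of the 20 largest differences among miRNAs detected throughout, 16 kept their side of the adjusted p threshold in each of the 22 alternatives. That count leaves out the 2-fold limit, and under normexp correction only 2 of the 52 calls stayed calls. The exceptions, in at least 1 each, were miR-26b, miR-674*, miR-680 and miR-705. No alternative reversed the sign of a difference that had passed among the 44 recomputed miRNAs. Low signals also limit the precision: the smallest gained signals lay next to the lowest that the arrays detect.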
